A study of Mus musculus with 12 samples.

Results

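Untreated cultured microglia are described here on their own, as the starting state from which the study measured the effect of helper T cell products. The description rests on the 4 arrays of 12 in the series whose titles end with the T cell medium, IMDM. Membership was set by the titles alone and used no measured value. The other 8 arrays, from microglia given supernatants of Th1 or Th17 cultures, were not used in any value. Microglia came from the brains of C57BL/6 mice 1 to 3 days old, freed from the meninges and grown as mixed glial cultures, from which the loosely attached microglia were shaken off and replated. The wells labelled untreated then received T cell culture medium (complete IMDM) without any T cell product, and total RNA was taken 16 h later, so that every untreated sample had still been exposed to a change of medium and to serum. The study's methods give the cells as a shaken-off fraction and not as sorted cells. They describe that fraction as highly pure, from its high share of CD11b-positive cells in flow cytometry. The number of pups behind each culture is not given in the sources used here. The 4 arrays came from independent experiments numbered 12, 13, 14 and 16, and each is named here by its number, as in untreated 14.

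Microglia are the resident macrophages of the brain. They depend on signalling through the colony stimulating factor 1 receptor, survey the tissue through purinergic and chemokine receptors, and clear debris and synapses with the help of complement, phagocytic receptors and a large set of lysosomal enzymes. In culture they are known to lose part of the surveillance programme that marks them in the intact brain and to take on features of phagocytic macrophages.

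Levels are given as the log2 of a gene's signal over the 75th percentile of its array, so that 0 marks a signal brighter than that of 75% of the probes. Errors are SD over the 4 experiments. Of 20658 genes with a symbol, 12861 (62.3%) were well above background on all 4 arrays, 5295 (25.6%) were above background on none, and the others on 1 to 3. The number of probes above background ran from 23192 to 25623 per array, no spot was saturated, and the 75th percentile before scaling lay between 1199.6 and 1341.3 intensity units. Untreated 12 and 13 were hybridised on the same slide, whereas untreated 14 and 16 were each on a slide of their own, so that for these the experiment and the slide cannot be told apart. With 1 group there is no contrast to test. Counts of list members above background on all 4 arrays are therefore read against the 62.3% of all genes, and counts of members that spanned more than 2-fold against the 14.8% of all genes above background on all 4.

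The microglia markers Apoe, Tyrobp, Csf1r and Cst3 were among the brightest transcripts, and their levels hardly moved between experiments. Apoe, which encodes the lipid carrier apolipoprotein E, was at 8.31, 8.37, 8.34 and 8.28 on untreated 12, 13, 14 and 16. Tyrobp, the signalling adaptor of TREM2, was at 7.91, 7.98, 8.02 and 7.82. Csf1r, the receptor on which microglia depend, was at 7.58, 7.57, 7.75 and 7.44. Each of these 3 genes kept within 1.23-fold over the arrays, and the cystatin gene Cst3, a cathepsin inhibitor, kept within 1.29-fold at 7.59, 7.51, 7.62 and 7.25. Apoe held rank 3, Tyrobp rank 15, Csf1r rank 45 and Cst3 rank 59 among the 12861 genes. All 23 measured members of a list of microglia and macrophage identity genes were above background on all 4 arrays, beside 62.3% of all genes, with a median level of 6.52 beside 0.13 over all genes, and 10 of them were among the 100 brightest genes. Most members of that list are shared with other macrophages.

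**Figure D1:**
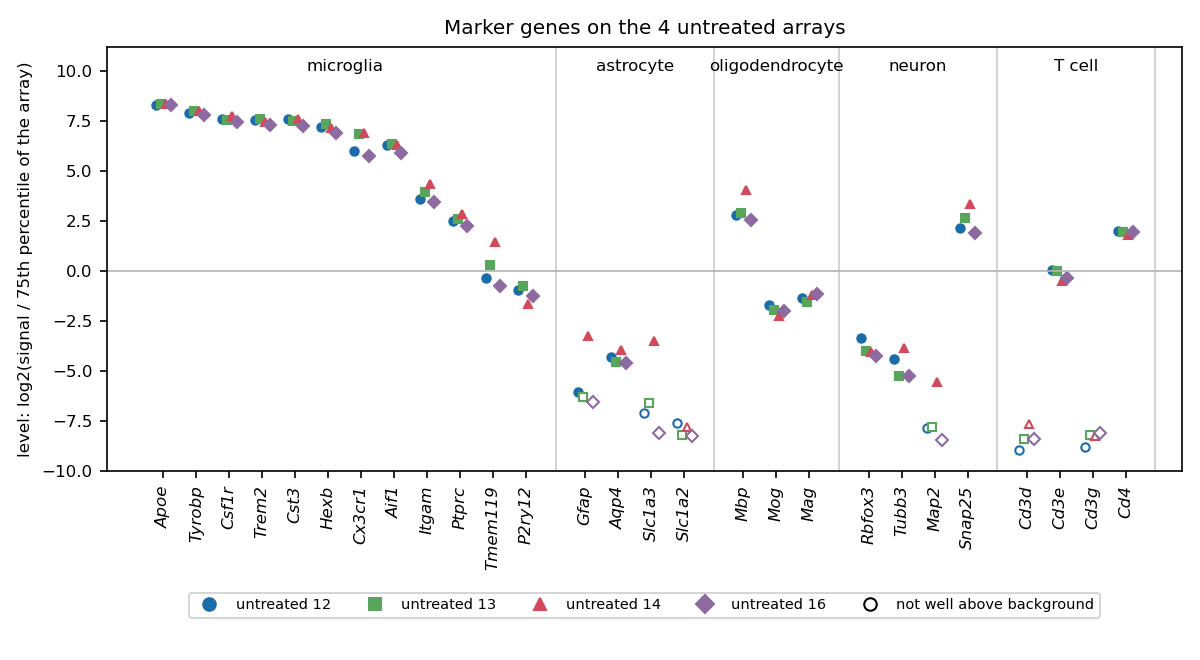
Levels of defining marker genes of microglia, astrocytes, oligodendrocytes, neurons and T cells on the 4 untreated arrays, as log2 of signal over the array's 75th percentile. Each point is 1 experiment, and open points were not well above background. The microglia markers Apoe to Aif1 lay above every marker shown of another cell type on all 4 arrays. The microglia markers Tmem119 and P2ry12 instead lay below Mbp and Cd4 on all 4 arrays.

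The 25 brightest genes fell into a few kinds. Actb, the gene of cytoplasmic actin, came first at 8.50 ± 0.09 (SD, n = 4), and Actg1 (7.98 ± 0.06) and Tmsb4x, which encodes an actin-binding peptide (7.99 ± 0.02), were close to it. Lysosomal proteases formed the next kind. Ctsd followed Actb at 8.45 ± 0.07, Ctsb stood at 7.83 ± 0.04, Lgmn (legumain) at 7.77 ± 0.08 and Ctsa at 7.74 ± 0.07. Both ferritin chains were in the group, with Ftl1 at 8.18 ± 0.08 and Fth1 at 7.79 ± 0.10. Ribosomal protein genes, the translation-associated Tpt1 (8.26 ± 0.08), the lysozyme gene Lyz2 (7.86 ± 0.19), the fatty acid binding protein gene Fabp5 (7.78 ± 0.36), Ppia (7.93 ± 0.06) and Gapdh (7.77 ± 0.14) made up most of the rest. Among the 100 brightest genes, 31 encoded ribosomal proteins, and the 100 together held 22.1% to 22.8% of the summed signal of each array. None of the 100 spanned more than 2-fold between the experiments, and their median SD was 0.081 beside 0.211 over all genes.

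Rank here is a rank of probe brightness, since probes bind their targets with different strength. Of 3340 genes with several probes above background on all arrays, the brightest and the dimmest probe differed by a median of 2.05 on the log2 scale. Among the 100 brightest genes, 44 had 1 probe, and in 20 of the other 56 the next probe was over 3 log2 units dimmer. Exosc2 at 8.02, Glrx2 at 8.11 and Kctd14 at 7.77 stood in the first 25, and the other probes of Glrx2 read 2.15 and -3.43. Those of Kctd14 read -6.04, above background on 2 arrays, and -8.55, above background on none. Csf1r itself read 7.59, 4.31 and 2.66 with its 3 probes, and Ctsa 7.74 and 0.97. Positions in the ranking are therefore given as a description of the probe chosen for each gene, the one of highest mean. With the median over the probes of a gene instead, 67 of the 100 stayed among the brightest 100.

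**Figure D2:**
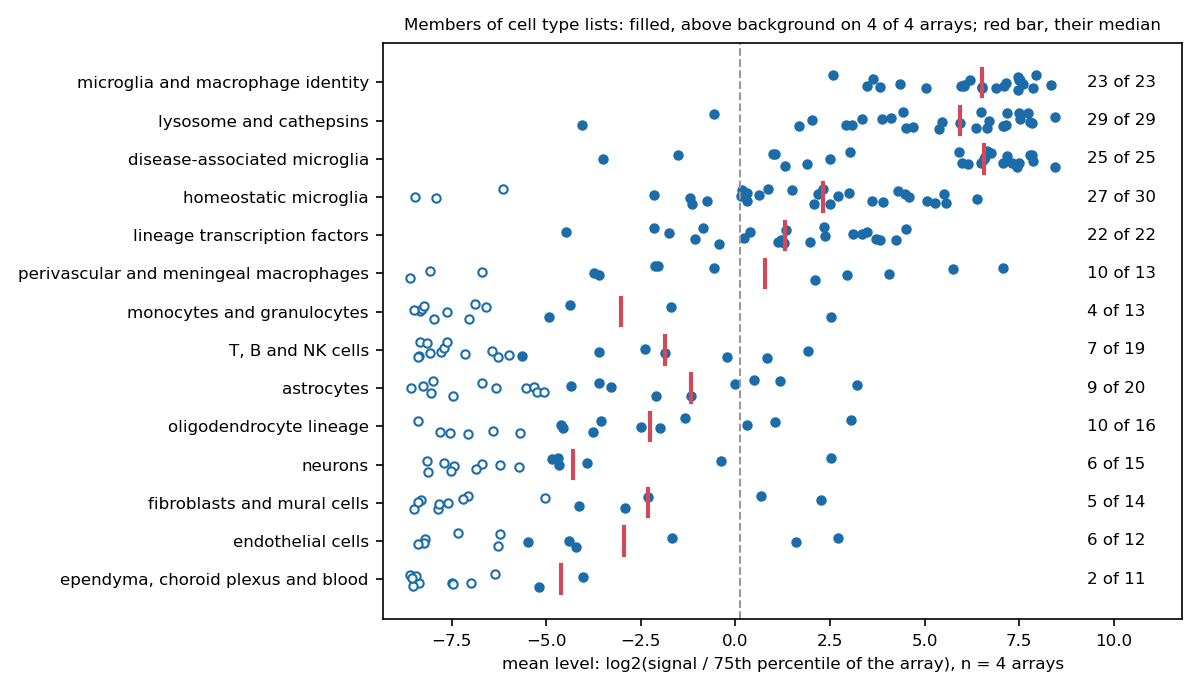
Mean level over the 4 untreated arrays of every measured member of 14 cell type and state lists, with filled points for members above background on 4 of 4 arrays and a red bar at their median. The identity, disease-associated and lysosome lists had medians of 6.52, 6.56 and 5.93, while the lists of other cell types had medians below 0 or, for perivascular macrophages, of 0.78.

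Genes of the homeostatic programme, which sets microglia of the intact brain apart from other macrophages, were mostly detected but spread over a wide range of levels. Of 30 measured members, 27 (90%) were above background on all 4 arrays, at a median of 2.32. The fractalkine receptor gene Cx3cr1 was the brightest at 5.99, 6.86, 6.89 and 5.77 on untreated 12, 13, 14 and 16. Rgs10, an inhibitor of G protein signalling, stood at 5.58 ± 0.30 and the lectin gene Siglech at 5.52 ± 0.25, although the other probe of Siglech was not above background on any array. The low end held the genes most often used as microglia-specific markers. P2ry12, the ADP receptor that guides process movement, was at -0.93, -0.73, -1.65 and -1.25, and Tmem119 at -0.37, 0.31, 1.47 and -0.77. Both were above background in every experiment, and P2ry12 lay below the 75th percentile of each array. Sall1, a transcription factor gene of the microglial programme, was at -2.16 ± 0.76, and Crybb1 and Upk1b were above background on none of the arrays.

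Macrophage transcription factors were detected without exception. All 22 listed members were above background on all 4 arrays, at a median of 1.31. The interferon regulatory factor genes Irf8 (4.50 ± 0.08) and Irf5 (4.24 ± 0.31) and the lysosomal regulator gene Mitf (3.82 ± 0.14) were the brightest. Spi1, which encodes the lineage factor PU.1, was at 1.28 ± 0.21. The early growth response gene Egr2 varied most, with 0.21, -0.70, -0.78 and 2.18, and was highest on untreated 16.

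Genes that mark the disease-associated state of microglia around lesions and plaques were bright in these untreated cultures. All 25 measured members were above background on all 4 arrays, with a median of 6.56, and 9 of them were among the 100 brightest genes. Lpl, a lipase that marks this state, was at 7.44 ± 0.07, and Lgals3 (galectin-3) at 7.31 ± 0.10. The osteopontin gene Spp1 was at 6.74 ± 0.49, Gpnmb at 6.64 ± 0.36, and the growth factor gene Igf1 at 6.15 ± 0.15. The list shares cathepsin and lysozyme genes with the lysosome and identity lists, so that its median is not an independent value. Not every member was bright. Csf1 stood at -3.50 ± 0.74, Cst7 at -1.51 ± 0.58, and the integrin gene Itgax had levels of 1.24, 0.06, -0.23 and 2.94. Ch25h, a cholesterol hydroxylase gene, spanned 9.64-fold and was lowest on untreated 12.

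Lysosomal genes were bright and even, while genes of complement and of phagocytic receptors varied more. All 29 measured lysosomal genes were above background on all 4 arrays at a median of 5.93, and only the collagenolytic cathepsin gene Ctsk, at -0.56 ± 1.04, spanned more than 2-fold, beside 14.8% of all genes. The C1q chain genes C1qc (6.89 ± 0.22), C1qa (6.52 ± 0.20) and C1qb (6.51 ± 0.14) led the complement list, of whose 21 members 17 (81.0%) were above background on all arrays, and 7 of the 17 spanned more than 2-fold (41.2%, beside 14.8% of all genes). C3 was at 2.01 ± 0.81, its receptor gene C3ar1 at 3.81 ± 0.19 and C5ar1 at 3.46 ± 0.32. The protease genes that complete the C1 complex were dim, with C1ra at -3.30 ± 0.72 and C1s1 not above background on any array. Of 24 phagocytic and scavenger receptor genes, 23 (95.8%) were above background throughout, and 6 of the 23 spanned more than 2-fold (26.1%). Trem2 was the brightest at 7.48 ± 0.15, followed by Gas6 (6.28 ± 0.20), the bridging ligand of the TAM receptors, and by Cd14 (5.96 ± 0.57). Of the TAM receptor genes, Axl stood at 1.31 ± 0.54, Mertk at 0.96 ± 0.20 and Tyro3 at -4.48 ± 0.32, and the phosphatidylserine receptor gene Timd4 was above background on no array.

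Antigen presentation was uneven between its branches. All 20 class I genes were above background on all arrays at a median of 3.68, led by B2m (6.93 ± 0.21), H2-D1 (6.38 ± 0.34) and H2-K1 (6.26 ± 0.31). Of 11 class II genes, 9 (81.8%) were above background throughout at a median of -1.80. H2-Ab1 was at 0.61, -1.43, -0.94 and 0.20, its partner H2-Aa was above background on 2 arrays, and Cd74, the invariant chain, was at 0.73, -0.86, 0.22 and -0.23. Ciita, the coactivator that switches on class II genes, was at -3.92 ± 0.62. Within the same list the thiol reductase gene Ifi30 reached 3.84 ± 0.33.

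Most receptors for the cytokines that T cells release were detected in these cultures, which had received no T cell product. Of 33 such receptor genes, 26 (78.8%, beside 62.3% of all genes) were above background on all 4 arrays at a median of 2.67, and 3 of the 26 spanned more than 2-fold (11.5%, beside 14.8% of all genes). The GM-CSF receptor chain genes Csf2ra (5.60 ± 0.31), Csf2rb2 (4.04 ± 0.13) and Csf2rb (3.33 ± 0.12) were all detected. Both chains of the interferon-gamma receptor were bright, with Ifngr1 at 4.18 ± 0.33 and Ifngr2 at 3.45 ± 0.17. Of the interleukin-17 receptor genes, Il17ra was at -1.16 ± 0.20 and Il17rc at -3.81 ± 0.61, while Il17rb and Il17rd were above background on no array. The other probe of Il17rc, at -7.20, was not above background on any array. Il17re was above background on untreated 14 alone. Il2ra, Il2rb and Il23r were not detected on any array either. Of 16 genes of JAK and STAT signalling, 13 (81.3%) were above background on all arrays. The kinase gene Jak1 was at 2.98 ± 0.17, Stat6 at 2.44 ± 0.12 and Stat3 at 1.95 ± 0.24.

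Sensors of danger and of microbes were detected in the same way. Of 21 Toll-like receptor and adaptor genes, 18 (85.7%) were above background on all arrays, led by Cd14, Unc93b1 (5.03 ± 0.26) and Tlr13 (5.01 ± 0.13), and Tlr5 was detected on none. Among 25 purinergic receptor and ion channel genes, 20 (80.0%) were above background throughout. The ATP-gated channel gene P2rx4 (5.42 ± 0.22) and the UDP receptor gene P2ry6 (4.58 ± 0.15), which acts in phagocytosis, were bright, and the ADP receptor gene P2ry13 stood at -1.19 ± 0.61. Nt5e, whose product makes adenosine from AMP, was above background on no array. Growth factor genes were led by Grn (6.66 ± 0.14), Igf1 and Pdgfb (3.64 ± 0.40), and Bdnf was at -4.71 ± 0.20, with 17 of 26 listed genes (65.4%) above background throughout, close to the 62.3% of all genes. Of 20 chemoattractant receptor genes, 13 (65%) were above background on all arrays, also close to the share of all genes, and Cxcr2, Cxcr5 and Ackr3 were on none. Genes of alternative activation gave 8 of 15 (53.3%), led by Mgl2 (3.64 ± 0.11), and Retnla and Alox15 were above background on no array.

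Transcripts that define other cells of the brain and blood were dim for the most part, with exceptions. Of 20 astrocyte genes, 9 (45%) were above background on all 4 arrays, beside 62.3% of all genes, at a median of -1.17. The glutamate transporter gene Slc1a2 and the gap junction genes Gja1 and Gjb6 were above background on none. Slc1a3 was above background on untreated 14 alone, and Gfap, the intermediate filament gene of astrocytes, was above background on untreated 12 and 14, with levels of -6.06, -6.29, -3.26 and -6.57. Glul (3.23 ± 0.49) and Aldoc (1.17 ± 0.83) were the brightest of the list, and both also act in general metabolism. Of 16 genes of the oligodendrocyte lineage, 10 (62.5%, close to the 62.3% of all genes) were detected throughout at a median of -2.24. Mbp stood out at 3.06 ± 0.67 with the probe chosen, while its other probes read -2.25 and -4.38, and the lineage receptor gene Pdgfra and the myelin regulator gene Myrf were detected on no array. In bulk RNA, fewer cells of a type and less RNA per cell cannot be told apart.

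Genes of neurons, vessels and connective tissue were also detected in part. Of 15 neuronal genes, 6 (40%) were above background on all arrays at a median of -4.29, with Snap25 (2.51 ± 0.64) as the brightest member. Endothelial genes were detected in 6 of 12 cases (50%). Cdh5 (-5.49 ± 0.31) and Pecam1 (-4.22 ± 0.24) were dim, and Tek and Tie1 were on no array, while the growth factor receptor genes Kdr (2.70 ± 0.23) and Flt1 (1.60 ± 0.73) were higher. The other probe of Kdr read -3.85. Of 14 fibroblast and mural cell genes, 5 (35.7%) were above background throughout. The fibronectin gene Fn1, which macrophages can also express, was the brightest of these at 0.92, 2.64, 1.49 and 4.00, highest on untreated 16. Among 11 genes of ependyma, choroid plexus and blood, the count was 2 (18.2%), and Ttr and Foxj1 were detected on no array.

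Markers of other leukocytes gave a mixed pattern. Of 19 T, B and NK cell genes, 7 (36.8%) were above background on all 4 arrays. The T cell receptor complex genes Cd3d and Cd3g and the coreceptor gene Cd8a were above background on none. Cd3e stood at -0.21 ± 0.28 and Cd4, which macrophages can also express, at 1.92 ± 0.08, although the other probe of Cd4 read -5.13. Of 13 monocyte and granulocyte genes, 4 (30.8%) were detected throughout. The chemokine receptor gene Ccr2 of inflammatory monocytes was at -4.91 ± 0.04 while Elane read 2.54 ± 0.14. Perivascular and meningeal macrophages share much of their programme with microglia, and 10 of 13 of their genes (76.9%) were detected throughout. Ms4a7 (7.07 ± 0.21), Stab1 (5.75 ± 0.23) and Pf4 (4.05 ± 0.41) were bright, the mannose receptor gene Mrc1 was at 2.11 ± 0.50, and the more restricted markers Lyve1 and Cd163 were above background on none of the arrays.

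The experiments were alike over the whole transcriptome, but not equally so. The median SD over the 12861 genes was 0.211, and the highest and lowest array of a gene differed by a median of 1.39-fold. In 209 probes printed 10 times on each array, the SD between spots was 0.052 and that between arrays 0.205, so that the spread between arrays was the larger one for these probes, in 199 of 209 cases. Of the genes above background on all 4 arrays, 1897 (14.8%) spanned more than 2-fold, 349 more than 4-fold and 5 more than 32-fold. The count rested in part on single experiments, since it was 833 without untreated 14 and 1189 without untreated 16. Untreated 12 and 13, which share a slide, were the closest pair, with 252 genes apart by more than 2-fold. Untreated 14 and 16 were the farthest, with 1362. Among the 1897 genes that spanned more than 2-fold, 46.2% were highest on untreated 14 and 35.4% on untreated 16, beside 32.9% and 28.7% over all genes. The spread depended on brightness, as 7.59% of the genes above the median level and 21.9% of those below it spanned more than 2-fold.

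**Figure D3:**
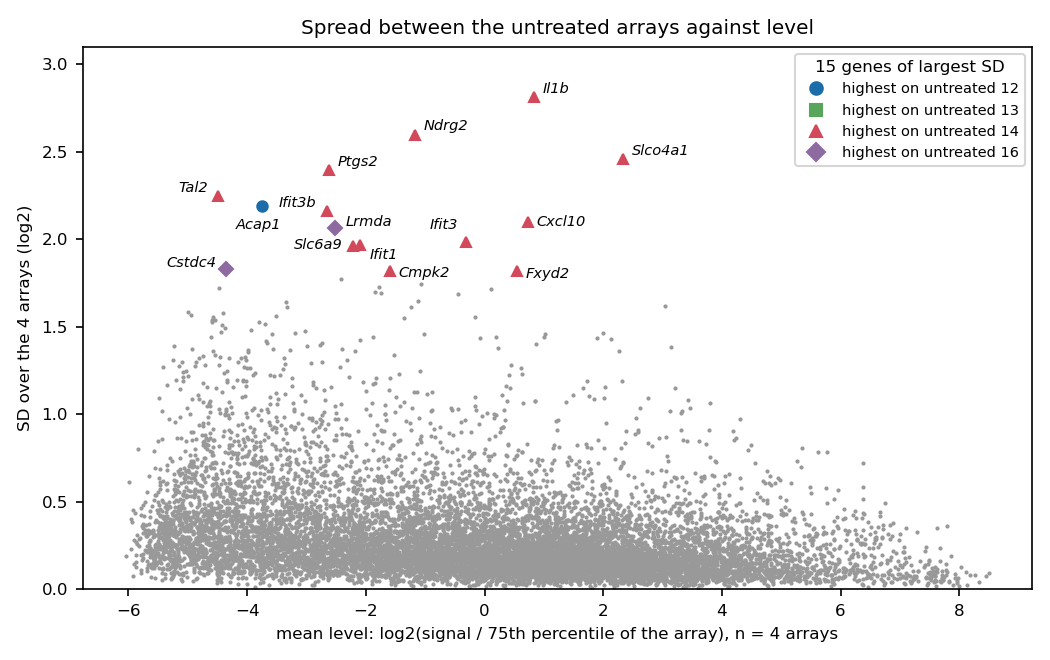
SD over the 4 untreated arrays against mean level (log2 of signal over the 75th percentile) for the genes above background on all 4, with the genes of largest SD named. The brightest genes lie at the bottom right, with a median SD of 0.081 for the first 100.

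Of the 15 genes of largest SD, 12 were highest on untreated 14. Il1b, which encodes the inflammatory cytokine interleukin-1 beta, spanned 62.9-fold, with levels of -1.18, 0.92, 4.78 and -1.19 on untreated 12, 13, 14 and 16. Slco4a1, an organic anion transporter gene, was at 0.31, 1.55, 5.92 and 1.58. Ptgs2, the gene of the inducible cyclooxygenase, was at -4.98, -3.69, 0.61 and -2.43. In each case untreated 14 was far above the other arrays. Ndrg2, a gene of the astrocyte list, was at -2.53, -1.98, 2.69 and -2.86 and spanned 46.8-fold. Some genes stood apart on other arrays. Acap1 was highest on untreated 12 (-0.54 beside -4.77, -5.44 and -4.22), and Lrmda was highest on untreated 16 (0.58 beside -3.40, -3.54 and -3.70). At the other end, Zfp943, Sec11a, Nelfb and Trappc9 each kept within 1.02-fold.

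Genes induced by interferons moved together between the experiments. Interferons signal through JAK kinases to STAT and IRF factors, which act on a promoter element known as the interferon-stimulated response element. Of 28 measured members, 25 were above background on all 4 arrays at a median of -0.31, and 19 of the 25 spanned more than 2-fold (76%, beside 14.8% of all genes). In 19 of the 25, untreated 14 was highest and untreated 16 lowest, an order found in 16.9% of all genes. It was found in 15 of the 19 members that spanned more than 2-fold, beside 26.2% of all genes with such a span. The median deviation from a gene's mean over the arrays was 1.19 on untreated 14 and -0.71 on untreated 16, and lay within 0.13 of 0 on the other arrays. The chemokine gene Cxcl10 was at 0.61, -0.51, 3.74 and -0.89, and Ifit1, whose product binds viral RNA, at -2.57, -1.94, 0.43 and -4.34. Ifit3 spanned 28.7-fold (-0.60, -0.27, 2.24 and -2.61), and the ubiquitin-like modifier gene Isg15 7.09-fold (1.93, 2.29, 3.94 and 1.12). Bst2, at 4.24 ± 0.16, and Iigp1, at -1.35 ± 0.16, kept within 1.30-fold. Ifnb1, the gene of interferon-beta itself, was above background on untreated 14 alone, as were Il6 and Tnfsf10.

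Promoter stretches of members that moved together are shown, read from the RefSeq promoter table on GRCm38.p6, in which a promoter runs from 250 bases before the start of the gene to 50 after it. Capitals mark the core letters of the interferon-stimulated response element, GAAA, any 2 bases and GAAA again, searched on both strands, so that a match on the other strand reads TTTC, any 2 bases and TTTC. Overlapping matches run together, and every stretch ends before the start of the gene.
Cxcl10, chr5:92349068-92349127, minus strand: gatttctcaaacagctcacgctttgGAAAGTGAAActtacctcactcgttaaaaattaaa
Ifit3, chr19:34583382-34583441, plus strand: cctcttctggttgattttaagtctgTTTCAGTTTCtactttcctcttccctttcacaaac
Ifit1, chr19:34640779-34640838, plus strand: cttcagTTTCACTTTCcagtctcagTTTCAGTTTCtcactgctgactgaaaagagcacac
Isg15, chr4:156200850-156200909, minus strand: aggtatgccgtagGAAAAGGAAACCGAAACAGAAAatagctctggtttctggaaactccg
Rsad2, chr12:26456538-26456597, minus strand: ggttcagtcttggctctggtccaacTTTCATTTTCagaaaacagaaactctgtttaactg
Oas1a, chr5:120907526-120907564, minus strand: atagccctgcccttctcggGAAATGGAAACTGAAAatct
Of 22 listed members above background with a promoter in the table, 14 (63.6%) held the letters, beside 3.99% of 27025 genes with a promoter. The members with the letters did not all move alike. Oas1a, whose stretch holds 2 overlapping matches close to the start, kept within 1.78-fold (3.62, 3.69, 4.04 and 3.21), and Bst2 also held them, while Ifit2 (9.35-fold) and Irf7 (6.73-fold) had no match in the table's window. A match is a description of letters, and no binding was measured.

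Inflammatory mediators and chemokines moved with untreated 14 in part, and in part against it. Of 15 cytokine and mediator genes above background on all arrays, 10 were highest on untreated 14, beside 32.9% of all genes. Tnf, at 1.53, 2.09, 2.41 and 2.38, did not follow Il1b. The chemokines split. Cxcl1 (-1.36, -3.50, 0.45 and -2.68), Ccl5 (1.55, 1.60, 2.48 and -0.09) and Cxcl10 peaked on untreated 14. Ccl2, which recruits monocytes, was instead at 2.20, 2.69, 1.87 and 5.42, and Ccl7 at -0.57, -0.41, -1.22 and 2.63, with untreated 16 highest and untreated 14 lowest. The brightest chemokine genes, Ccl9 (5.89 ± 0.52), Ccl4 (5.50 ± 0.55) and Ccl3 (5.36 ± 0.43), were also highest on untreated 16. Il12a, Il23a, Il13, Il17a and Ifng were above background on no array.

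**Figure D4:**
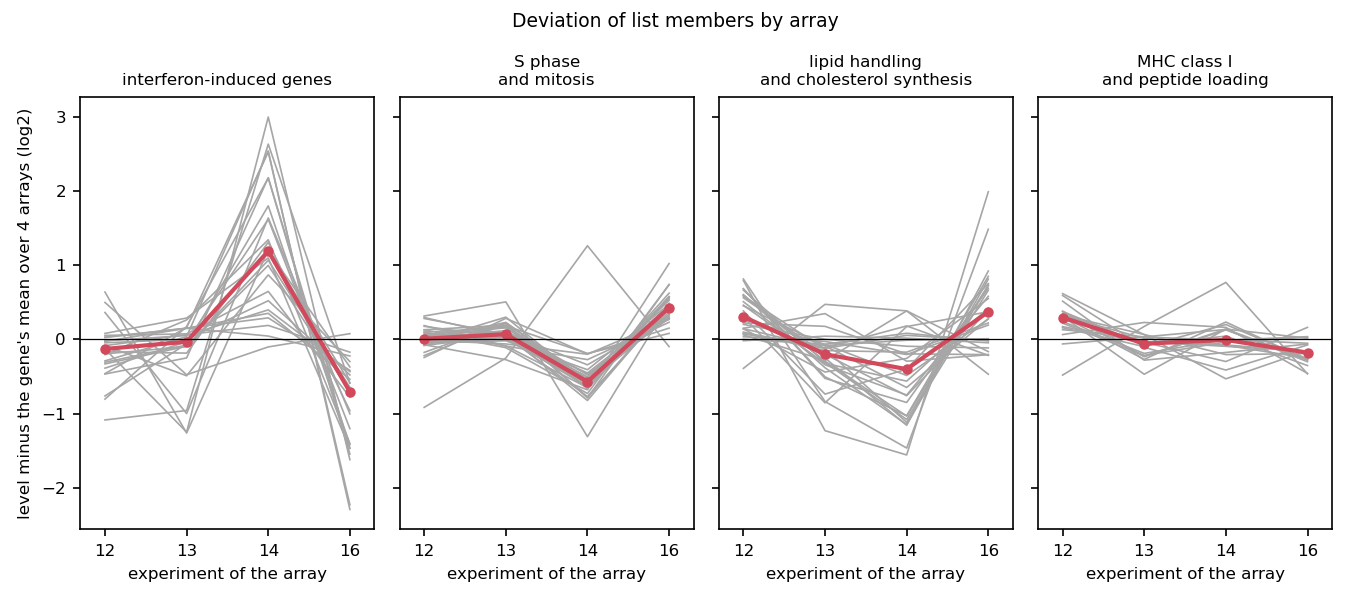
Deviation (log2) of each member of 4 gene lists from its own mean over the 4 untreated arrays, by experiment, with 1 grey line per gene and the median of the list in red. The experiments have no order and the lines only join the points of a gene. The median reached 1.19 on untreated 14 for interferon-induced genes, -0.57 on untreated 14 for S phase and mitosis, and 0.30 on untreated 12 for class I genes.

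Genes of cell division were detected in full and ran the opposite way. All 31 listed genes of S phase and mitosis were above background on all 4 arrays, at a median of 1.63, led by the replication clamp gene Pcna (6.20 ± 0.23), the helicase subunit gene Mcm6 (5.12 ± 0.17) and Ccnd1 (4.82 ± 0.65). In 27 of the 31, untreated 16 was highest and untreated 14 lowest, an order found in 17.9% of all genes, and so it was in 13 of the 15 that spanned more than 2-fold, beside 25.3% of all such genes. Untreated 14 was lowest in 29 of the 31, beside 36% of all genes. The median deviation was -0.57 on untreated 14 and 0.43 on untreated 16. Mki67, a marker of cycling cells, was at 2.56, 3.01, 2.19 and 3.36, and the mitotic cyclin gene Ccnb1 at 1.29, 1.26, 0.59 and 1.80. Ccnd2, another D-type cyclin gene, ran the other way, at -4.50, -3.83, -2.31 and -3.68.

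Sterol synthesis separated the experiments along another line, which was not fixed in advance. In 20 of 29 genes of lipid handling and cholesterol synthesis, both untreated 12 and 16 lay above both untreated 13 and 14, the order of 22.6% of all genes, and all 15 of the 29 that spanned more than 2-fold had it, beside 26.9% of all such genes. These were chiefly enzymes and regulators of cholesterol synthesis. Hmgcs1, which forms the precursor of mevalonate, was at 4.31, 3.59, 2.61 and 4.39, and Sqle, the squalene epoxidase gene, at 3.60, 2.63, 1.86 and 3.66. The desaturase gene Scd2 followed the same order at 3.96, 2.31, 1.68 and 4.64. Genes of lipid transport did not: Apoe and Lpl kept within 1.12-fold, and Abca1 within 1.32-fold. The letters TCACNCCAC, a form of the sterol regulatory element, were found in the promoter of 1 of 18 listed members with a promoter in the table, Hmgcs1, and in 1.44% of all genes with a promoter.
Hmgcs1, chr13:119690189-119690247, plus strand: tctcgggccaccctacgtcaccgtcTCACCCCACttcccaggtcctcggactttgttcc

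Smaller shifts set the remaining experiments apart. Class I genes were highest on untreated 12 in 15 of 20 cases, beside 21.2% of all genes, with a median deviation of 0.30 there. Psmb9, an immunoproteasome subunit gene, was at 2.90, 2.34, 1.75 and 2.13. Identity genes were lowest on untreated 16 in 20 of 23 cases, beside 30.7% of all genes, but by little, with a median deviation of -0.24. Of the homeostatic genes, 18 of 27 were lowest on untreated 16, where Fcrls, Olfml3 and Hpgd read 4.34, 2.55 and 3.27 against highest values of 5.86, 4.45 and 5.59. P2ry12 and P2ry13 did not share that order and were lowest on untreated 14. For identity genes a promoter stretch with GAGGAAGT, core letters bound by PU.1, is shown, searched on both strands and found in 3 of 16 identity genes with a promoter in the table and in 3.69% of all genes with one. C1qc moved little, at 7.03, 7.04, 6.92 and 6.57.
C1qc, chr4:136893077-136893134, minus strand: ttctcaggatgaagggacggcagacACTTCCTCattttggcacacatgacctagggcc

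**Figure D5:**
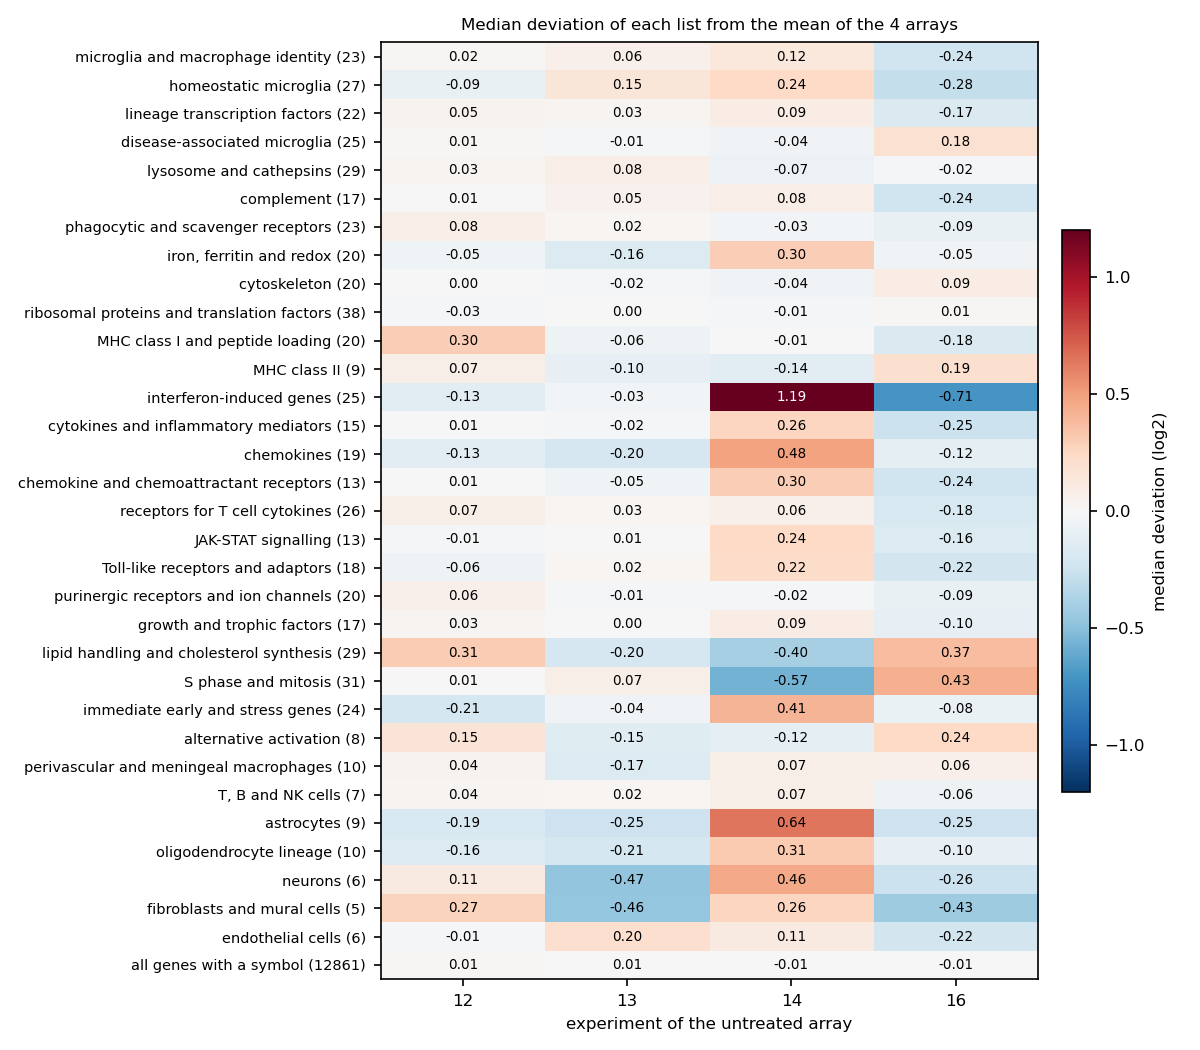
Median deviation (log2) of each gene list with at least 5 such members on each untreated array from the gene's mean over the 4 arrays, with the number of members above background on all 4 in parentheses. Untreated 14 was highest for interferon-induced genes (1.19) and astrocyte genes (0.64), and lowest for genes of S phase and mitosis (-0.57).

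Signal of other glia moved with untreated 14 in part. Of the 9 astrocyte genes above background on all arrays, 7 were highest on untreated 14, beside 32.9% of all genes. The median deviation of the 9 there was 0.64. Of the 9, 7 spanned more than 2-fold, and 46.2% of all genes with such a span were highest on untreated 14. Sparcl1 was at -3.69, -2.20, -0.22 and -2.28, and Fabp7, a marker of radial glia and immature astrocytes, at 0.22, 0.25, 1.60 and -0.07. Aldh1l1 ran against them with 0.51, -0.38, -0.92 and 0.75, and Aldoc was also highest on untreated 16, at 0.99, 0.35, 1.04 and 2.32. In the oligodendrocyte lineage, 5 of the 10 genes above background on all arrays were highest on untreated 14, and 2 were lowest there. Olig1, a gene of large SD in that list, was at -6.25, -4.81, -2.48 and -4.73. Mog ran against it at -1.69, -1.97, -2.27 and -2.02, and Cspg4 was also lowest on untreated 14. The lists of astrocytes, oligodendrocyte lineage, neurons, fibroblasts and mural cells, endothelial cells, and ependyma and blood together held 88 genes. Of these, 15 were above background on exactly 1 array, beside 1431 of all 20658 genes. In 10 of the 15 (66.7%) that array was untreated 14, beside 28.4% of the 1431. The 10 included Slc1a3, Id4, Olig2, Map2 and Nefl. The summed signal of the 20 measured astrocyte genes was 28.5 times the 75th percentile on untreated 14 and 12.9 to 14.6 times it on the others. Glul, which also acts in general metabolism, held a large part of that sum, and without it the sum was 13.9 on untreated 14 and 4.04 to 8.25 on the others. Single genes weighed heavily in these sums too, chiefly Ndrg2 on untreated 14 (level 2.69) and Aldoc on untreated 16 (level 2.32). The sums are therefore not a measure of the list as a whole. Slc1a2, Gja1 and Gjb6 remained below background on untreated 14 too. Whether these other glia had a part in the interferon, cytokine or cell cycle values of untreated 14 was not tested.

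In a joint list of immediate early genes and of stress genes such as Hspa5, 13 of 24 were highest on untreated 14, beside 32.9% of all genes. The median deviation of the list there was 0.41. Fos was at 2.17, 3.75, 4.48 and 2.85, and Btg2 at -0.62, 0.61, 2.19 and -0.40. Of 20 genes of iron handling and redox defence, all above background throughout, 13 were highest on untreated 14, with a median deviation of 0.30. The oxidative stress gene Hmox1, for haem oxygenase 1, was at 5.99, 5.79, 7.40 and 6.29. Egr1 instead was lowest there, at 2.13, 2.73, 1.16 and 2.75. The 38 ribosomal protein and translation factor genes, at a median level of 7.24, moved on none of the arrays by more than a median of 0.025, and the 20 cytoskeletal genes, all above background throughout at a median of 6.39, by no more than 0.092. Both the X inactivation transcript Xist and the Y-linked genes Ddx3y and Eif2s3y were above background on all arrays, and Kdm5d on none. Xist stood at -3.08, -3.71, -4.32 and -3.78 and Ddx3y at -0.76, 0.32, 0.15 and 0.60.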

How the data were processed

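Total RNA was labelled with Cy3 and hybridised to 1-colour Agilent mouse 4x44k arrays, whose design refers to the mm9 build. Per the file headers, the deposited intensity values are the background-corrected processed signal of Agilent Feature Extraction 10.7.3.1, not normalised between arrays. The log2 values that the authors deposited as a value table ran with the scanner values (r = 1 for differences between arrays over 16810 bright probes). They are scaled to the 75th percentile and centred per probe (column medians -0.0587 to 0.0124), with the sign of the signal. They served as an alternative, and 8 of its columns, from treated microglia, were not used.

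Flagged and control spots were left out, repeated spots were averaged, and the signal was divided by the 75th percentile of the array before log2 was taken. A probe counted as above background where at least 0.5 of its spots did. Accessions were named through the RefSeq table of GRCm38.p6 (27234 of 39429 probes, 69.07%), with 1 probe per gene, that of highest mean. No comparison was tested, as there was 1 group. The values given array by array were checked for an outlying array with Dixon's criterion, and the number of arrays limits the precision. Members and gene lists were chosen with earlier results of these data known. The orders of arrays that were counted over the lists were not fixed in advance either. A list's share beside that of all genes is therefore a description and no test. Named by rule were the 25 brightest genes, the 15 of largest and 5 of smallest SD, the 4 markers, and in each list the 3 brightest, the 2 of largest SD, those above background on no array and, for cell types, the first 4. Other named genes were chosen after their values were seen. Of the listed members, Cd68, Clec7a, Mx1, Mx2, Il12b, Cxcl11, Hspa1b, Ly6c2 and Hbb-b1 were not named on the array as used here. The alternatives were quantile normalisation, normexp with an offset of 50 (on the median signal, as the files hold no mean signal; limma 3.58.1 in R 4.3.3), another percentile, the median over probes, other filters, arithmetic averaging, a floor and leaving out each array. The scripts (Python 3.11.15) were tested on simulated data. Some genes that the rule names are not reported here.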

Additional observations from a re-analysis of the deposited data

Results flagged for a closer look

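In 4 of 59 values checked, the array farthest from the others lay apart by a larger part of their whole range than Dixon's 95% critical value for 4 samples, which chance exceeds in about 1 of 20 groups. Ndrg2 and Lrmda were checked because they were among the 15 genes of largest SD, so that the chance rate does not hold for them. Other checked genes were also named for their spread or after their values were seen, so that it does not hold for the 59 values as a set. Gfap was highest on untreated 14, with a gap of 0.846 of the range, and it was above background on untreated 12 and 14. Ndrg2 was also highest on untreated 14 (0.843). The median deviation of the astrocyte genes was highest there too (0.926). Lrmda was highest on untreated 16 (0.932). Outside the named genes, 5033 of 11793 accessions without a symbol in the RefSeq table were above background on all 4 arrays, and 9 of them were brighter than the 25th named gene.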

How the results depend on the processing

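No paired analysis was possible because a single group was described and its values come from no test. Leaving out an experiment gave 833 to 1790 genes spanning more than 2-fold, lowest without untreated 14 (833) and then without untreated 16 (1189), beside 1897 with all. That count was 5078 with normexp, 5656 with no filter on dim probes and 3869 with genes above background on at least 1 array. The median SD was 0.365 with normexp, beside 0.211. The median deviation of astrocyte genes on untreated 14 was 1.65 with genes above background on at least 1 array, beside 0.64. That filter admits Slc1a3 and Id4, which were above background on untreated 14 alone, so that the larger value there follows in part from the filter. The median deviation of the sex-linked genes on untreated 12 turned from -0.64 to 0.56 with normexp. The cause was not tested. The interferon-induced genes had median deviations of 0.866 to 1.21 on untreated 14 under all alternatives that kept it, while that on untreated 16 was -0.42, beside -0.71, without untreated 14. Of 108 summary values under the alternatives, 100 moved by less than the SD between the arrays or, for counts and the median SD, by no more than 1.5 times, and the other 8 are those given above. Signals near background are the least certain: the dimmer genes spanned more than 2-fold in 21.9% of cases and the brighter ones in 7.59%.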
